A study of Mus musculus with 6 samples.

Results

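The contractile genes of myoepithelial cells were followed in mouse submandibular salivary gland organoids (mSGOs) between day 5 and day 7 of culture. The list held 10 of the 47643 gene IDs in the count files and was given by gene name: *Acta2*, *Actg2*, *Myh11*, *Cnn1*, *Tagln*, *Csrp1*, *Mylk*, *Myl9*, *Tpm1* and *Tpm2*. From general knowledge, the 5 genes *Acta2*, *Actg2*, *Myh11*, *Cnn1* and *Tagln* were treated as restricted to smooth-muscle-like cells, and the other 5 as broadly expressed. The mSGOs are multicellular structures that grow in Matrigel from dissociated gland cells of C57BL/6 mice aged 8 to 12 weeks, females only according to the methods of the study. All of them were untreated and non-irradiated, with no allele named beyond the strain, and were kept in WRY medium with Wnt3a- and R-spondin1-conditioned medium, EGF, FGF2, insulin, dexamethasone and Y27632, an inhibitor of the ROCK kinases, which keep myosin light chains phosphorylated. Libraries from 3 mice were made on each day, 6 in all. As both days shared one medium, the data hold no comparison without the inhibitor.

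Myoepithelial cells are epithelial cells that lie between the secretory units and the basement membrane and squeeze saliva towards the ducts. They combine the keratins of basal epithelium with the contractile apparatus of smooth muscle, and α-smooth muscle actin (*Acta2*), smooth muscle myosin (*Myh11*) and calponin (*Cnn1*) are their usual histological markers. Force comes from myosin sliding along actin filaments after its regulatory light chain has been phosphorylated by a kinase that calcium signals switch on. Many genes of this apparatus are driven by serum response factor (SRF) through a promoter motif named the CArG box, in which CC and GG enclose a run of A and T.

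Because CArG boxes are known from the promoters of muscle actin genes, promoters were searched on both strands for CArG boxes, counting also those with 1 G or C in the A/T run. The window was the 250 bases before the transcription start in RefSeq (mouse build GRCm38.p6, in which these coordinates are given), and it was available for 7 of the 10 members. Boxes were found in *Acta2* and *Myl9* and none in *Cnn1*, *Csrp1*, *Mylk*, *Tpm1* or *Tpm2*. Of all 32817 promoter windows of this length, 8.6% held such a box and 1.47% a box with only A and T inside. The 3 windows shown are those of *Acta2* (chr19:34255374-34255623, minus strand), of *Acta1*, the skeletal muscle actin gene that was detected beside it (chr8:123894776-123895025, minus strand), and of *Myl9* (chr2:156775214-156775463, plus strand), each 5′ to 3′ with the boxes in capitals.
Acta2: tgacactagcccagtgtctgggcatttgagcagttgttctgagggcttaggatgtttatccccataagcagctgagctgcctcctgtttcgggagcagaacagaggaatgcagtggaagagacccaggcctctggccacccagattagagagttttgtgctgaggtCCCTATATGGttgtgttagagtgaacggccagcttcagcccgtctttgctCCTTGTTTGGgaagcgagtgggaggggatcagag
Acta1: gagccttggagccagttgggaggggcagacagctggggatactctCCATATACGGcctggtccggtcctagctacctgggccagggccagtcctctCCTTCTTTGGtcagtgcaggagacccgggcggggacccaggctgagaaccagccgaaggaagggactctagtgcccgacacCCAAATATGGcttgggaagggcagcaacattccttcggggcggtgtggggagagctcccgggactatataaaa
Myl9: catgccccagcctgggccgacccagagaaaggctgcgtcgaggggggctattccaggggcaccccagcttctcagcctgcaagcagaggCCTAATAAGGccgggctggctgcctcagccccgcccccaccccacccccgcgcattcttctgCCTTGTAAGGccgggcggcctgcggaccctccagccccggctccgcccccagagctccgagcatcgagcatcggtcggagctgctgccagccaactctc
In *Acta2* the first bases of the boxes lay 84 and 34 bases before the start, and each box had 1 G or C inside. *Acta1* held 3 boxes, beginning 205, 154 and 73 bases before the start, of which the last had only A and T inside. *Myl9* held 2, at 161 and 99 bases, the first of them with only A and T inside. A match is a string of letters and was not tested for binding.

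The libraries were made with a 3′-end kit, in which transcripts are read at their ends only, so that counts of long and short genes can be set side by side without a length correction. Each library held 1918198 to 2837397 counts in genes, spread over 14024 to 14856 genes. Values are given as raw counts or as CPM (counts per 1000000), scaled by the TMM factors of edgeR. The libraries of day 7 varied more among themselves (biological coefficient of variation 0.2925) than those of day 5 (0.09032). A change was called with an adjusted p under 0.05 in the quasi-likelihood test of edgeR and an absolute log2 fold change over 0.6. Of 15792 genes tested, 1901 (12.0%) were past this threshold, 7.22% higher and 4.82% lower at day 7. A total of 4887 genes (30.9%) had no overlap between the days, and the median log2 fold change over all genes was -0.01. Scaling by library totals alone changed the split from 1140 higher and 761 lower to 950 and 1008. In pooled organoid RNA, fewer cells of a type and less RNA per cell cannot be told apart.

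As sums, the restricted and the broadly expressed members lay at very different levels. The gap came from *Tpm1*, *Tpm2* and *Csrp1* and did not hold for each broadly expressed gene. At day 7 *Mylk* (3.69 CPM on average) and *Myl9* (0.870 CPM) averaged less than *Acta2* (4.89 CPM). The restricted members together gave 1 count over the 3 libraries of day 5 and 47 over those of day 7, against 10035 and 9888 counts of the broadly expressed members. On the CPM scale the restricted sum was 0, 0 and 0.360 in mice 1, 2 and 3 at day 5 and 5.37, 9.37 and 2.94 at day 7. The broad sum was 1428, 1310 and 1428 CPM at day 5 and 1250, 1243 and 1492 CPM at day 7, with overlapping days. Of the 10 members, 8 reached the minimum of 1 count in 2 libraries and were tested. 2 of these, *Acta2* and *Csrp1*, were past the threshold, both higher at day 7, and 6 were not, against 12.0% past it among all genes tested. *Acta2*, *Cnn1* and *Tagln* entered the test only through their counts at day 7. *Acta2*, *Csrp1* and *Mylk*, 3 of the 8 tested, had no overlap between the days, as had 30.9% of all genes tested. For *Acta2* this rested on 2 reads in mouse 3 at day 7, fewer than the 3 counts taken as a floor. With so few members, these shares were not compared by a test.

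**Figure D1:**
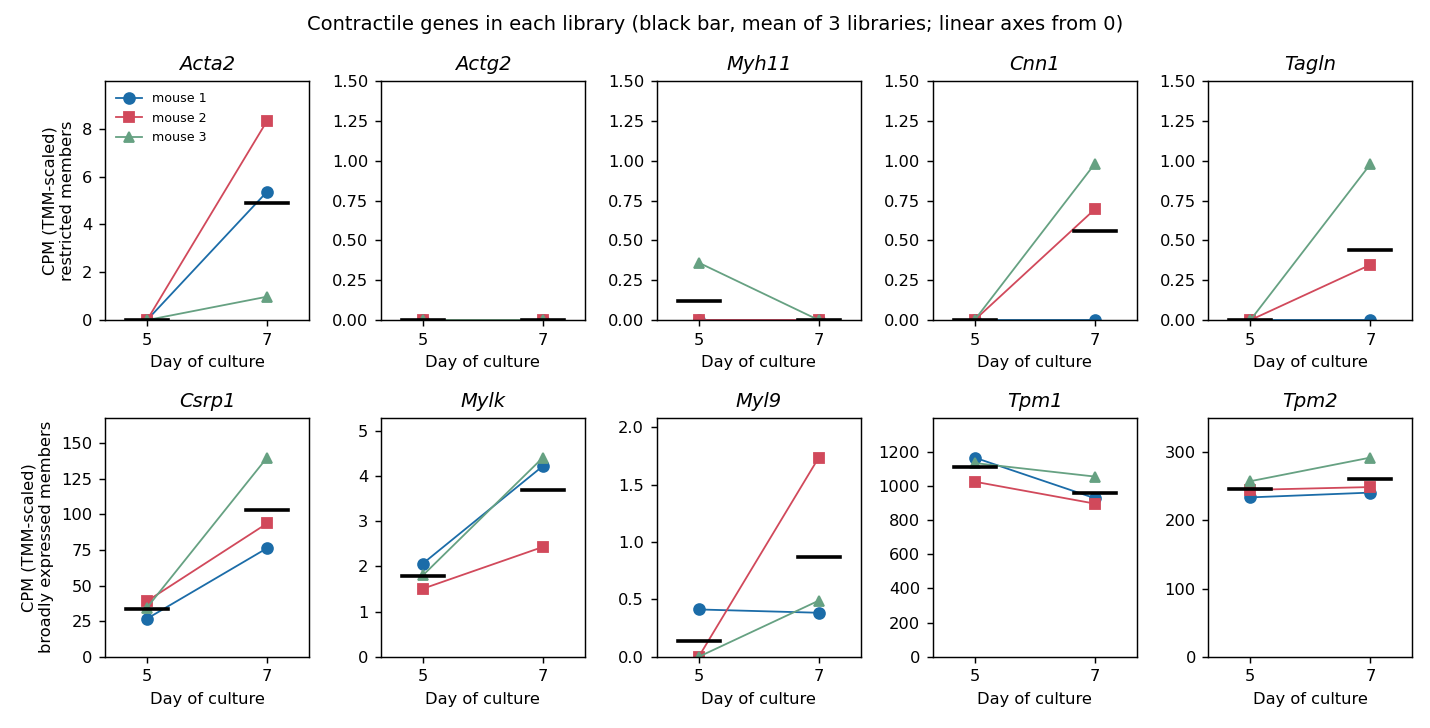
CPM of each of the 10 members (linear axes from 0, scaled separately) at day 5 and day 7 of culture, with 1 point per library, lines joining the libraries of a mouse and black bars for the mean of 3 libraries. *Acta2* was at 0 in all day 5 libraries and between 0.979 and 8.33 CPM at day 7, *Csrp1* was higher at day 7 in 3 of 3 mice, and the days overlapped for *Tpm1* (897 to 1166 CPM) and *Tpm2* (233.5 to 291.8 CPM).

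*Acta2* (ENSMUSG00000035783, GRCm39 chromosome 19, 34217737 to 34232990, minus strand) encodes the actin that gives smooth muscle and myoepithelial cells their thin filaments. It was not counted in any library of day 5 and was counted 14, 24 and 2 times in mice 1, 2 and 3 at day 7. In CPM the day 7 values were 5.37, 8.33 and 0.979, or 4.89 ± 3.70 (SD, n = 3). All day 7 libraries lay above all day 5 libraries, but that of mouse 3 rested on 2 reads. The adjusted p of *Acta2* was 0.00262 in edgeR. Against a floor of 3 counts over the day 5 libraries (0.417 CPM), its pooled level at day 7 was at least 12.7-fold higher. This bound allows for counts missed at day 5 but not for the spread of the day 7 libraries. This bound fell to 8.25-fold without the day 7 library of mouse 2, to 8.44-fold and 7.82-fold without the day 5 libraries of mice 1 and 3, and *Acta2* was past the threshold without any single library, with adjusted p-values up to 0.0317. Filters that asked for more counts (filterByExpr, or a mean count of 10) removed *Acta2* from the test.

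The enteric smooth muscle actin gene *Actg2* (ENSMUSG00000059430, chromosome 6, 83489887 to 83513551, minus strand) was at 0 in all 6 libraries, which allows up to 0.204 CPM on 3 counts over the 6. *Myh11* (ENSMUSG00000018830, chromosome 16, 14012399 to 14109236, minus strand), the smooth muscle myosin heavy chain gene, had 1 count in all, in mouse 3 at day 5. Neither could be tested, and at this depth neither transcript could be followed.

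*Cnn1* (ENSMUSG00000001349, chromosome 9, 22010512 to 22020926, plus strand) encodes calponin, which binds actin and slows the myosin motor. It was at 0 at day 5 and had 0, 2 and 2 counts in mice 1, 2 and 3 at day 7 (adjusted p = 0.228 in edgeR). *Tagln* (ENSMUSG00000032085, chromosome 9, 45840909 to 45847404, minus strand) encodes transgelin, an actin-bundling relative of calponin. It was likewise at 0 at day 5 and had 0, 1 and 2 counts at day 7 (adjusted p = 0.294 in edgeR). Mouse 1, which had 14 reads of *Acta2* at day 7, had none of *Cnn1* or *Tagln*, while mouse 3 had 2 reads of each of the 3 genes. No fold change is given for *Cnn1* and *Tagln*, whose counts lay near the floor on both days.

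*Csrp1* (ENSMUSG00000026421, chromosome 1, 135647492 to 135679976, plus strand) encodes a LIM-domain protein of actin bundles and of the nucleus, abundant in smooth muscle but also made elsewhere, and it is one of the genes by which the study named myoepithelial-like cells. Its level was 26.8, 39.2 and 34.6 CPM in mice 1, 2 and 3 at day 5, from 65, 78 and 96 counts. At day 7 it was 76.3, 93.7 and 140.0 CPM, from 199, 270 and 286 counts. The days did not overlap, and mouse 3 was highest at day 7. The mean rose from 33.5 ± 6.25 to 103 ± 32.9 CPM (SD, n = 3 each), a log2 fold change of 1.62 ± 0.25 (SE, 95% interval 1.10 to 2.14, adjusted p = 0.000274 in edgeR). It stayed between 1.35 and 1.80 without any single library. *Csrp1* was thus the member with the firmest change, and its order among the mice at day 7 was not that of *Acta2*, which was lowest in mouse 3.

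The related *Csrp2* went from 17.8 ± 1.60 to 22.8 ± 2.62 CPM (log2 fold change 0.37, adjusted p = 0.375 in edgeR). Of the counts of both genes, *Csrp1* supplied 65.1% ± 2.75 in the 5-day and 81.0% ± 6.19 in the 7-day mSGOs (SD, n = 3 each). These shares did not overlap, since they ran from 61.9% to 66.7% and from 74.8% to 87.2%.

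The tropomyosins, rod-shaped proteins that lie along actin filaments and set which myosins can bind, made up most of the list. *Tpm1* (ENSMUSG00000032366, chromosome 9, 66929870 to 66956953, minus strand) alone supplied 79.8% of the broad sum at day 5 and 72.4% at day 7. Its level was 1166, 1025 and 1134 CPM in mice 1, 2 and 3 at day 5 and 929, 897 and 1055 CPM at day 7. It was lower at day 7 in 3 of 3 mice, but the days overlapped, with a log2 fold change of -0.21 (95% interval -0.59 to 0.17, adjusted p = 0.503 in edgeR). *Tpm2* (ENSMUSG00000028464, chromosome 4, 43514697 to 43524949, minus strand) was at 233.5, 244.5 and 257.2 CPM at day 5 and at 240.5, 248.6 and 291.8 CPM at day 7. Its log2 fold change was 0.09 (95% interval -0.29 to 0.47, adjusted p = 0.818 in edgeR), with a sign that turned under library totals (-0.0086). For both genes the intervals leave out a doubling in either direction. The annotation gives *Tpm1* 44 coding transcripts with 4 separate 3′ ends and *Tpm2* 29 with 3, and the gene-level counts do not separate muscle from non-muscle forms.

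*Mylk* (ENSMUSG00000022836, chromosome 16, 34565580 to 34822790, plus strand) encodes the myosin light chain kinase. It was counted 5, 3 and 5 times at day 5 and 11, 7 and 9 times at day 7 in mice 1, 2 and 3, so that the days did not overlap. The ratio of summed counts per effective library size was 1.98 with a counting interval of 0.989 to 4.19, and edgeR gave a log2 fold change of 0.99 (95% interval -0.13 to 2.11, adjusted p = 0.256). The 2 annotated coding transcripts share 1 3′ end, so 3′ counts cannot tell them apart. *Myl9* (ENSMUSG00000067818, chromosome 2, 156617084 to 156623579, plus strand) encodes the regulatory light chain typical of smooth muscle. It had 1, 0 and 0 counts at day 5 and 1, 5 and 1 at day 7, with 5 of the 7 reads of day 7 in mouse 2 (ratio 6.69, counting interval 0.859 to 301, adjusted p = 0.255 in edgeR). Although listed here among the broadly expressed members, *Myl9* was at the level of the restricted ones.

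In order of level at day 7, *Tpm1* (960 ± 84.0 CPM) was followed by *Tpm2* (260 ± 27.6), *Csrp1* (103 ± 32.9), *Acta2* (4.89 ± 3.70), *Mylk* (3.69 ± 1.09), *Myl9* (0.870 ± 0.752), *Cnn1* (0.558 ± 0.504) and *Tagln* (0.442 ± 0.496; SD, n = 3 for each). *Tpm1*, *Tpm2* and *Csrp1* were apart from their neighbours in all 3 libraries. *Acta2* and *Mylk*, and the 3 genes below them, overlapped. The 3′ ends of the 10 members shared no 50-base window with another gene, and no member overlapped an exon of a gene on its own strand. For 6 members an exon overlaps a gene on the opposite strand, such as *Stambpl1* at *Acta2* and *Elof1* at *Cnn1*. The strand setting of the counting was not stated, so reads of such pairs cannot be told apart with certainty.

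The close relatives of the rare members were abundant on both days. *Actb*, the cytoplasmic β-actin gene, averaged 3469 ± 212 CPM in the 5-day and 3974 ± 986 CPM in the 7-day mSGOs (SD, n = 3 each, log2 fold change 0.20, adjusted p = 0.592 in edgeR). At day 7 *Acta2* gave 0.140% ± 0.114 of the counts of the 4 detected actin genes, and *Actb* 99.4% ± 0.189 (SD, n = 3). *Actg1*, the cytoplasmic γ-actin gene, had only 6.21 and 10.1 CPM on average, but 93.25% of its 3′-end windows occur in 23 other genes, which leaves its count uncertain. The shares of *Acta2* and *Actb* among the actin genes, which include *Actg1*, are uncertain to that extent. *Tagln2* was at 665 ± 31.3 and 638 ± 114 CPM, against 3 reads of *Tagln* in all. *Cald1*, whose product caldesmon restrains myosin on actin, was at 406 ± 45.5 and 383 ± 5.76 CPM (adjusted p = 0.825 in edgeR).

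*Acta1* (chromosome 8, 124618501 to 124623661, minus strand), the α-actin gene of skeletal muscle, had the day pattern of *Acta2*. It was at 0 in every day 5 library and had 20, 24 and 7 counts in mice 1, 2 and 3 at day 7, or 7.67, 8.33 and 3.43 CPM. Like *Acta2*, it entered the test only through day 7 and left it under filterByExpr or a mean count of 10. Its adjusted p was 0.000315 in edgeR. Against the day 5 floor its pooled level at day 7 was at least 16.2-fold higher, again without allowance for the spread at day 7. The bound fell to 10.8-fold and 9.97-fold without the day 5 libraries of mice 1 and 3. Mouse 3 was the lowest for both α-actins. The 3′ ends of *Acta1* share 2.76% of their windows with other genes and those of *Acta2* none. *Ckm*, *Tnnt3* and *Actn3*, markers of skeletal muscle fibres, were at 0 in all libraries, and the 7 skeletal muscle markers together gave 7.43 to 10.5 CPM at day 5 and 3.12 to 4.41 CPM at day 7 (exact two-sided permutation p = 0.1, the smallest that 3 against 3 libraries allow, and 0.2 adjusted over 6 marker lists). Most of this sum was *Tnni2*, a troponin gene of fast muscle fibres, with 46 counts at day 5 and 16 at day 7 (log2 fold change -1.57, adjusted p = 0.0258 in edgeR, up to 0.107 when any 1 day 5 library or the day 7 library of mouse 2 was left out), followed by *Mylpf* with 16 and 12 counts.

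Of 14 other thin filament genes, 12 were tested, of which 2 rose (*Acta1*, *Cnn3*), 1 fell (*Tpm3*) and 9 were not past the threshold, with a median log2 fold change of 0.34. Over all genes tested, 12.0% were past it, 7.22% higher and 4.82% lower at day 7. The counts of this list and of those below were not compared with these shares by a test. *Cnn3*, the acidic calponin found in many non-muscle cells, went from 240, 239 and 226 CPM in mice 1, 2 and 3 to 433, 618 and 687 CPM, with no overlap (log2 fold change 1.30 ± 0.20 SE, adjusted p = 0.000331 in edgeR). *Tpm3*, a tropomyosin gene with cytoskeletal forms, went from 520, 469 and 392 CPM to 230, 254 and 186 CPM (log2 fold change -1.04 ± 0.20 SE, adjusted p = 0.00169 in edgeR). Both were past the threshold without any single library. Of their 3′-end windows, 12.0% for *Cnn3* and 28.1% for *Tpm3* are shared with other genes. With mouse as a block, *Smtn* (smoothelin, an actin-binding protein) passed as well (log2 fold change 0.67, adjusted p = 0.0398 in edgeR, against 0.0569 without the block).

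Of 20 genes of myosin and its regulation, 19 were tested, of which 1 rose, 1 fell and 17 were not past the threshold (median -0.02). With mouse as a block 4 were past it, among them *Myh10* (-0.81, adjusted p = 0.0207) and *Ppp1r14b* (-1.11, adjusted p = 0.000373 in edgeR), which were not past it without the block. *Myh14*, a non-muscle myosin heavy chain gene, went from 18.4 ± 1.66 to 32.3 ± 7.80 CPM (log2 fold change 0.80, adjusted p = 0.0495 in edgeR), and of the fits without 1 library only that without the day 7 library of mouse 1 kept the call (adjusted p up to 0.192 in the others). The call also held with mouse as a block (adjusted p = 0.0316 in edgeR). It was lost with library totals (adjusted p = 0.0859) and with upper quartile scaling (adjusted p = 0.0617 in edgeR). Without the most counted gene ID and the mitochondrial genes it was lost as well (adjusted p = 0.0517 in edgeR). The Wald test of DESeq2 (adjusted p = 0.0748) and limma voom (adjusted p = 0.0544) gave no call either.

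*Myh9*, the main non-muscle myosin heavy chain gene here, gave 88.3% ± 0.891 of the counts of its family at day 5 and 87.1% ± 1.03 at day 7, from a level of 437 ± 7.16 and 377 ± 75.4 CPM (adjusted p = 0.512 in edgeR). Among the regulatory light chains, *Myl12a* and *Myl12b* gave 4828 and 619 of 5454 counts at day 7, and *Myl9* 7. *Myl12a* was far lower in mouse 3 at day 7 (174 CPM) than in mice 1 and 2 (949 and 694 CPM). Of its 3′-end windows 26.4% are shared with other genes, and *Myl12a* and *Myl12b* both overlap exons of *Gm49909* on their own strand. Their counts and shares are uncertain to that extent. *Rhoa* and the kinase genes *Rock1* and *Rock2*, the latter pair encoding the targets of the inhibitor in the medium, were at 241, 449 and 423 CPM on average at day 7, and their log2 fold changes were 0.23 (adjusted p = 0.549), -0.42 (adjusted p = 0.139) and 0.04 (adjusted p = 0.926) in edgeR.

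**Figure D2:**
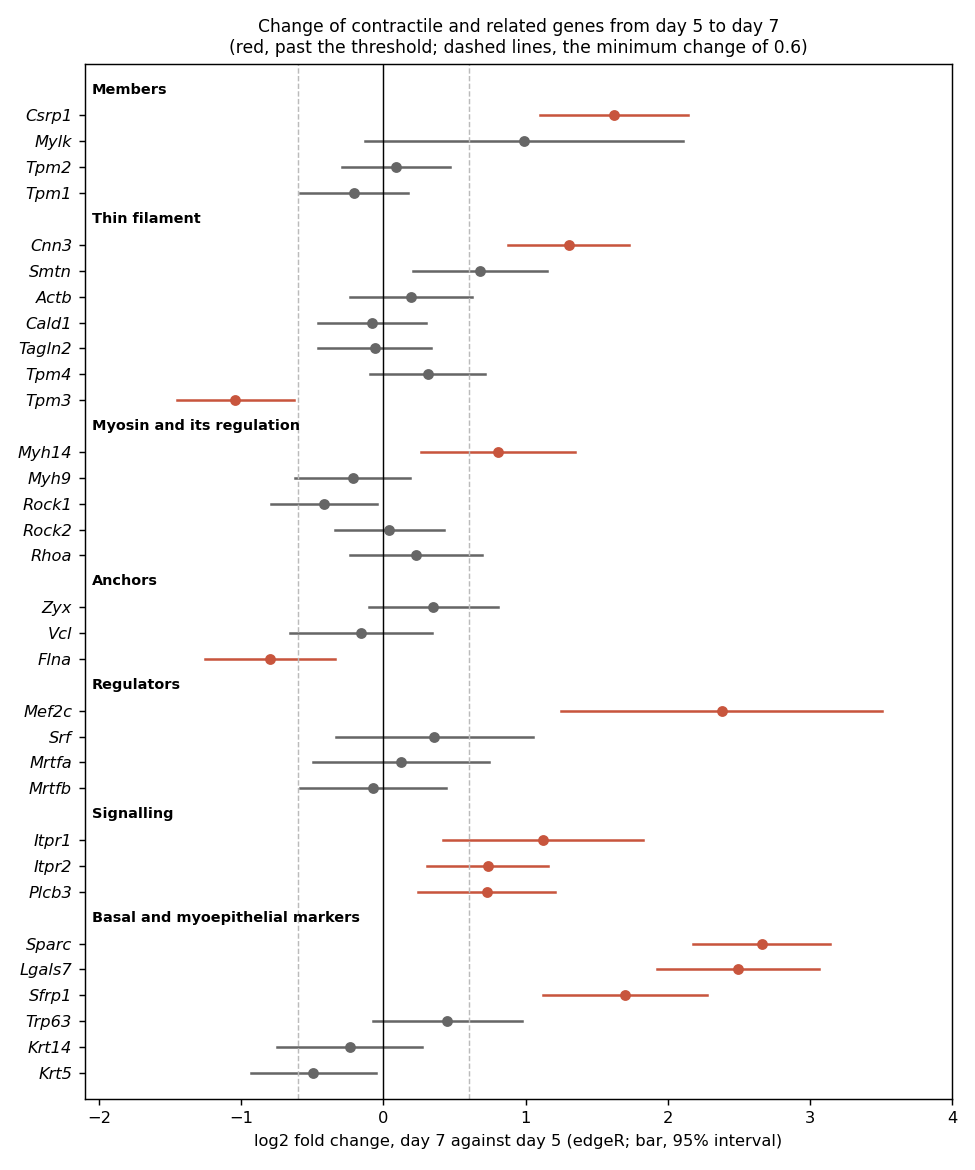
Log2 fold change of day 7 against day 5 (edgeR, point) with its 95% interval (bar) for members and a selection of related genes with counts on both days, red where past the threshold and dashed at the minimum change of 0.6. *Csrp1* (1.62) and *Cnn3* (1.30) lie to the right of the dashed line with their whole interval, and *Tpm1* and *Tpm2* lie within both dashed lines.

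Of 17 genes that anchor actin to adhesions and the membrane, 16 were tested and 15 were not past the threshold (median 0.04). *Flna*, which encodes the actin crosslinker filamin A, fell from 189 ± 18.3 to 109 ± 31.8 CPM (log2 fold change -0.80, adjusted p = 0.0218 in edgeR). Its adjusted p reached 0.145 when any 1 day 5 library or the day 7 library of mouse 2 was left out. *Des*, the desmin gene of muscle cells, was at 0 in all libraries.

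The regulators of the SRF programme gave 14 genes, of which 13 were tested, 1 rose and 12 were not past the threshold (median 0.12). *Srf* itself was at 65.2, 75.3 and 56.2 CPM in mice 1, 2 and 3 at day 5 and at 79.4, 137 and 32.8 CPM at day 7, with overlapping days (log2 fold change 0.36, adjusted p = 0.533 in edgeR). Its value rested on the day 7 libraries, with 0.73 (adjusted p = 0.0213 in edgeR) without that of mouse 3 and -0.21 (adjusted p = 0.747) without that of mouse 2. *Myocd*, the muscle-restricted SRF coactivator myocardin, was at 0 in all libraries. The actin-sensing coactivator genes *Mrtfa* and *Mrtfb* were at 19.0 and 38.1 CPM at day 5 and at 20.5 and 36.4 CPM at day 7 (adjusted p = 0.838 and 0.898 in edgeR). *Mef2c*, a transcription factor gene of muscle and vessels, rose from 2.06, 2.01 and 0.360 CPM to 8.82, 5.21 and 8.81 CPM (log2 fold change 2.38, adjusted p = 0.00656 in edgeR). This rested on 10 and 56 counts, and the adjusted p was 0.0650 without the day 5 library of mouse 3.

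Of 20 genes that carry the signal to contract, from receptors to calcium stores, 14 were tested, 3 rose and 11 were not past the threshold (median 0.41). The oxytocin receptor gene *Oxtr*, through which myoepithelium of the breast contracts, was at 0 in all libraries, as were *Chrm1*, *Adra1a* and *Ednrb* among the receptors. *Adra1b* had 1 count, at day 7. The muscarinic receptor gene *Chrm3*, which the study used as a pro-acinar marker, was counted in all 6 libraries. It went from 7.78 ± 2.19 to 14.6 ± 5.09 CPM (SD, n = 3 each) with no overlap. Its log2 fold change of 0.88 was not past the threshold (adjusted p = 0.106 in edgeR). *Itpr1* and *Itpr2*, which encode calcium release channels, had log2 fold changes of 1.12 (adjusted p = 0.0345) and 0.73 (adjusted p = 0.0238) in edgeR. *Plcb3*, a phospholipase gene upstream of them, had 0.73 (adjusted p = 0.0450 in edgeR). None of these 3 kept its call in all fits without 1 library. With library totals, *Itpr1* (adjusted p = 0.0508) and *Plcb3* (adjusted p = 0.0790) lost theirs with all 6 libraries. Both also lost them in the Wald test of DESeq2 (adjusted p = 0.0542 and 0.0581). *Plcb3* lost its call with upper quartile scaling too (adjusted p = 0.0582 in edgeR). Without 1 library, adjusted p-values rose to 0.190 for *Itpr1*, 0.151 for *Itpr2* and 0.193 for *Plcb3*, and calls were lost for each of them without the day 5 library of mouse 1 or 2 or the day 7 library of mouse 3. For *Itpr2* and *Plcb3* the loss without the day 7 library of mouse 3 came from the size of the change (0.54 and 0.52). Both also lost their calls without the day 5 library of mouse 3, and *Itpr1* and *Plcb3* without the day 7 library of mouse 2. With mouse as a block, *Arhgef1* (-1.04, adjusted p = 0.00171 in edgeR) passed as well.

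The other 12 markers of basal and myoepithelial epithelium gave 10 tested genes, of which 4 rose and 6 were not past the threshold (median 0.32). Among those not past it, *Krt5* (-0.49), *Krt14* (-0.24), *Krt17* (-0.30) and *Id4* (-0.51) had log2 fold changes below 0, and *Cdh3* had 0.18. *Oxtr* and *Wif1* were at 0 in all libraries. *Sparc*, a matrix-binding glycoprotein gene, went from 60.6, 58.2 and 73.5 CPM in mice 1, 2 and 3 to 311, 366 and 542 CPM (log2 fold change 2.66 ± 0.23 SE, adjusted p = 7.57e-07 in edgeR). *Lgals7*, a galectin gene of stratified epithelium, went from 41.3, 31.6 and 34.2 CPM to 133, 170 and 304 CPM (log2 fold change 2.49 ± 0.27 SE, adjusted p = 8.64e-06 in edgeR). Both had no overlap and, like *Csrp1*, were highest in mouse 3 at day 7. *Sfrp1*, a secreted Wnt antagonist gene, went from 9.67 ± 1.08 to 31.8 ± 6.41 CPM (log2 fold change 1.70, adjusted p = 0.000474 in edgeR). *Igfbp2* had 1.65, 12.6 and 4.68 CPM at day 5 and 77.5, 37.8 and 7.83 CPM at day 7, with overlapping days (log2 fold change 2.78, adjusted p = 0.00549 in edgeR), and its adjusted p reached 0.206 without the day 5 library of mouse 1 or 3. *Trp63*, the p63 gene of basal cells, had 107, 95.9 and 82.5 CPM at day 5 and 181, 130 and 76.9 CPM at day 7, with overlapping days and a lower value at day 7 in mouse 3 (log2 fold change 0.45, adjusted p = 0.271 in edgeR). *Csrp1*, *Sparc*, *Lgals7* and *Trp63* are the markers that the study used for myoepithelial-like cells of older mSGOs.

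*Acta2* is also made by pericytes, vascular smooth muscle and activated fibroblasts, so markers of these cells were summed. The 11 fibroblast markers gave 0.360 to 1.51 CPM at day 5 (1 to 3 counts) and 1.92 to 2.94 CPM at day 7 (5 to 8 counts), and *Col1a2*, *Col3a1*, *Lum*, *Dpt* and *Mfap5* were at 0 in all libraries (exact permutation p = 0.1, adjusted 0.2). *Dcn* and *Thy1* were, like *Acta2*, counted at day 7 alone, *Dcn* 4, 0 and 2 times and *Thy1* 0, 2 and 2 times in mice 1, 2 and 3 (adjusted p = 0.153 and 0.228 in edgeR). The 8 pericyte and vascular muscle markers gave 120 to 158 and 151 to 186 CPM (exact permutation p = 0.2, adjusted 0.3), with *Cspg4*, *Abcc9* and *Higd1b* at 0 in all libraries and nearly all counts from *Notch3* and *Mcam*. *Rgs5* and *Pdgfrb*, defining genes of pericytes, had 1 count each, both in mouse 2 at day 7. This library had the most reads of *Acta2* and also the most counts in genes (2837397). The 8 endothelial markers gave 10.5 to 12.4 and 13.5 to 26.0 CPM (exact permutation p = 0.1, adjusted 0.2), with *Cdh5* and *Tek* at 0. *Egfl7* supplied 78 and 122 counts of the endothelial sum, and the difference of 6.14 CPM between the days was 2.05 CPM without the day 7 library of mouse 3. The part of the cells these markers stand for in the counts of *Acta2* was not tested. The 6 epithelial markers gave 13520 to 17380 CPM at day 5 and 10380 to 14980 CPM at day 7 (exact permutation p = 0.3, adjusted 0.3), and the 12 basal and myoepithelial ones 12780 to 16850 and 9422 to 14520 CPM (exact permutation p = 0.3, adjusted 0.3). Both sums are mostly *Krt14* (7719 and 6543 CPM on average) and *Krt5* (5965 and 4238 CPM), which stand in both lists. The labelled epithelial origin was thus matched by its markers, while the defining contractile genes of mature myoepithelium were at or near 0 at day 5 and, apart from *Acta2*, at day 7.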

How the data were processed

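Polyadenylated RNA of untreated mSGOs was measured with the Lexogen QuantSeq 3′ kit in 6 libraries, 3 mice at 2 days. The authors aligned reads to GRCm39 and deposited raw counts per Ensembl gene ID, not normalised. The aligner, counter, annotation release, strand setting and treatment of multiply aligned reads are not given in the sources used here. Entries that name no gene (13.7% to 14.4% of reads at day 5, 9.12% to 9.74% at day 7) entered neither library sizes nor tests. Names and coordinates came from GENCODE vM39 by ID (43465 of 47643 matched), and promoters from RefSeq.

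The 15792 genes counted at least 1 time in 2 or more libraries were tested with edgeR 4.0.16 in R 4.3.3 (TMM, two-sided quasi-likelihood F test, robust = FALSE, day as the only term), with Benjamini-Hochberg adjustment over all of them. The threshold (adjusted p under 0.05, absolute log2 fold change over 0.6) and the filter follow the methods of the study. The script was tested on simulated data. Floors are 3 counts, and floors and count intervals (95%, exact) cover counting error only.

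Same-numbered libraries come from the same mouse per the labels. Their deviations from the day means correlated with r = 0.137, -0.100 and 0.162 in mice 1, 2 and 3 over the 8172 genes averaging 10 CPM or more. The methods of the study state no block, so the fit with mouse as a block is an alternative. Others were DESeq2 1.42.0, limma 3.58.1 voom, other scalings and filters, and leaving out each library. Summed marker lists were compared by exact permutation tests (SciPy 1.17.1).

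The members and all gene lists were chosen with earlier results of these data known. Beside the members, the text names, by rule, up to 5 genes of each related list past the threshold with the smallest p, 12 fixed genes, and the 3 genes whose pattern over the libraries was nearest to each members' sum. Further relatives and markers (*Csrp2*, *Tagln2*, *Trp63*, *Krt5*, *Krt14*, *Krt17*, *Id4*, *Cdh3*, *Wif1*, *Tnni2*, *Mylpf*, *Dcn*, *Thy1*, *Egfl7*, *Rgs5*, *Pdgfrb*, *Notch3*, *Mcam*, *Myl12a*, *Myl12b*), the receptors other than *Oxtr*, and genes that passed only with the block were named after their values were seen. Some genes that the rule names are not reported here.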

Additional observations from a re-analysis of the deposited data

How the results depend on the processing

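The direction of *Csrp1*, *Mylk*, *Myl9* and *Tpm1* was unchanged under every alternative that gave them an adjusted p. For *Acta2*, *Cnn1* and *Tagln*, at 0 in every day 5 library, no alternative could turn the direction, so it is no sign of stability. All of these genes kept their side of the threshold wherever they had an adjusted p. The Wald test of DESeq2 gave no adjusted p for *Cnn1*, *Tagln* and *Myl9*. With filterByExpr or a mean count of at least 10, *Acta2*, *Mylk*, *Myl9*, *Cnn1* and *Tagln* were not tested. *Cnn1* and *Tagln* were also not tested without the day 7 library of mouse 2 or that of mouse 3. *Tpm2* turned from 0.09 to -0.0086 with library totals and to -0.0038 without the day 7 library of mouse 3 (range without 1 library -0.0038 to 0.14), not past the threshold each time. The count of 2 members past the threshold became 1 with filterByExpr and 1 with a mean count of at least 10, since *Acta2* is then not tested, and stayed at 2 without any single library. The count over all genes (1901) ranged from 1578 (DESeq2) to 2405 (all genes with any count) with all libraries, and from 797 to 2576 without 1 library. With mouse as a replicate block, the pairing gave 2340 calls over all genes, 4 in place of 2 for myosin and its regulation and 2 in place of 1 for the adhesion anchors, which also had 2 with library totals. The block changed the call of no member. Leaving out 1 library gave 0 to 4 calls for myosin and its regulation, 0 to 2 for the anchors, 0 to 3 for the SRF regulators and 0 to 6 for the contraction signals. The cause was not tested. Depth limits the restricted members, *Myl9* and *Mylk*, which had at most 40 counts over all libraries.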

Other observations

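Among the 8172 genes averaging 10 CPM or more, those nearest in pattern to the summed restricted members over the 6 libraries were *Serpinb11* (11.5 CPM on average at day 5, 94.2 at day 7), *Glrx* (12.1 and 95.1) and *Camk2n1* (6.38 and 45.1). The root mean square difference of their centred log2 CPM was 0.13, 0.23 and 0.25. A prior of 2 counts was added before the logarithm. The restricted sum had 1 count in all at day 5, so the prior largely set its day 5 level. Without the prior this sum averaged 0.120 CPM at day 5 and 5.89 CPM at day 7. The likeness to these 3 genes therefore depends on the prior. Nearest to the summed broad members were *Rsf1* (143.5 and 136.0 CPM), *Morc3* (55.3 and 53.0) and *Tada3* (13.7 and 13.6), with differences of 0.028, 0.035 and 0.037. This is a description of 6 libraries, in which the restricted sum is mostly the count of *Acta2*.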
